A study of Mus musculus with 15 samples.

Results

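Regulatory T cells (Tregs) from the peritoneal cavity were compared with Tregs from the spleen of control mice, in 2 peritoneal and 3 spleen libraries of the 15 in the series. All 5 were chosen by their labels alone, and 18423 of the 45706 genes in the table had enough counts to be tested. Tregs, defined by the transcription factor Foxp3, hold immune responses in check. The mice of every group were adults of the C57BL/6 strain crossed to a Foxp3 reporter, and Foxp3-positive cells were purified by sorting before bulk RNA sequencing. Control mice, also labelled wt or ctr, were littermates of the line named RelB-dDC. Libraries of that line, called dDC here, came from the peritoneal cavity (2) and spleen (3) as well, and 3 thymus libraries of control mice are given beside some values. The sources used here do not give the alleles behind the name dDC or the promoter that drives any recombinase. Whether a library is 1 mouse or a pool is not stated either, so p-values measure the spread between these samples, which may be technical.

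The spleen filters blood, and its Tregs sit among B cell follicles, T cell zones and red pulp. The peritoneal cavity is a fluid-filled space around the gut that is known for its large macrophages and its innate-like B cells. Tregs outside lymphoid organs are known to carry receptors for alarm cytokines such as Il1rl1, the receptor for interleukin 33, together with adhesion molecules and chemokine receptors that guide them into tissue. T cells that have recently met antigen switch on genes such as Egr2, Tnfrsf9 and Batf, and cells exposed to interferon switch on a shared set of antiviral genes.

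Library totals lay between 15714286 and 24332044 counts. Values are CPM, read counts divided by the TMM-scaled size of their library, and within a group they are given in the order of the replicate numbers. The T cell genes Cd3e, Cd4 and Lck were well above background in all 5 libraries. Foxp3 itself had 254.5 and 320.0 CPM in the peritoneal libraries and 208, 179 and 229 CPM in the spleen libraries, a log2 difference of 0.49 that did not pass the test (edgeR adjusted p = 0.354). The Treg label thus matched the defining gene in both tissues.

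The 2 peritoneal libraries stood apart from each other. On the first principal component of the 500 most variable genes, which held 49.5 percent of the variance, peritoneal control 2 scored 83.65, peritoneal control 1 scored 9.95 and the spleen libraries lay between -38.92 and -18.36. A list of 24 B cell genes summed to 8458 CPM in peritoneal control 1 and 24300 CPM in peritoneal control 2, against 4645 to 9011 CPM in spleen. The other macrophage and monocyte list summed to 521 and 3238 CPM against 944 to 1384 CPM, and the macrophage gene Lyz2 had 46.2 and 1187 CPM against 7.84 to 43.7 CPM. Gata6, which defines large peritoneal macrophages, had 1.33 CPM in peritoneal control 2 and no read in the other 4 libraries. The erythroid and platelet list went the other way, with 115 and 31.7 CPM in the peritoneal libraries against 3007 to 8425 CPM in spleen. RNA of other cells was therefore present in unequal amounts. Its part in the results was not tested. In such bulk samples fewer cells of a type and less RNA per cell cannot be told apart.

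**Figure D1:**
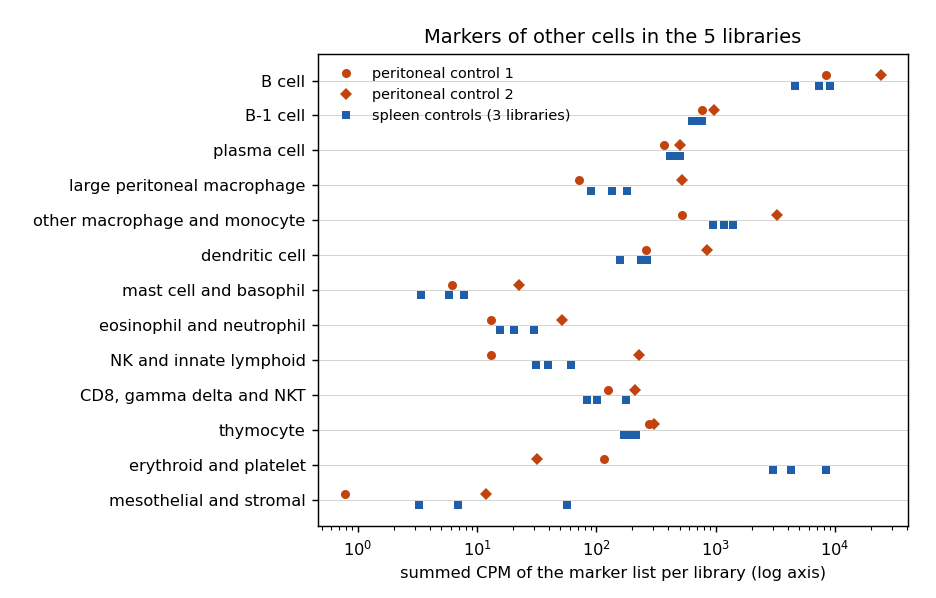
Summed CPM (log axis) of 13 marker lists of other cells in each of the 5 control libraries, peritoneal as circles and diamonds and spleen as squares. Peritoneal control 2 is the highest of the 5 for the B cell, macrophage, dendritic cell and NK lists, and the erythroid list is highest in spleen.

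In all, 146 genes passed the threshold (edgeR adjusted p under 0.05), 0.792 percent of those tested. Of these, 54 rose in peritoneal Tregs (0.293 percent) and 92 fell (0.499 percent), and the change exceeded 2-fold for 42 and 69 of them. The values of the 2 peritoneal and 3 spleen libraries did not overlap for any of the 146. Over all tested genes such separation was common, with 11.8 percent of genes separate and higher, 13.2 percent separate and lower and 25 percent in either direction. A further view is given by the unadjusted p, which was under 0.05 for 1952 genes (10.6 percent). The median log2 difference of all genes was -0.03, a value that the scaling centres near 0.

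The number of calls depended on single libraries. Without peritoneal control 1 there were 326, without peritoneal control 2 there were 38, and without spleen control 1, 2 or 3 there were 65, 74 and 72. A set of 27 genes passed whichever of the 5 libraries was left out, and 25 of these also passed with DESeq2 and with limma. Axl and Il1r2 passed with DESeq2 but not with limma (limma adjusted p = 0.0818 and 0.0925). These 27 are described first, and are called stable here. The 11 that rose were Crip1, Ecm1, Tagln2, Ifngr1, Ahnak, Pim1, Adk, Atp2b1, Rnf125, Pik3r5 and Ptafr. Of the 16 that fell, 15 are described, namely Ccr8, Myb, Apol9b, Map2, Krt83, Axl, Il1r2, Ncmap, Tnfrsf9, Dtx1, Cst7, Rgs1, Rgs10, Izumo1r and Ephx1.

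**Figure D2:**
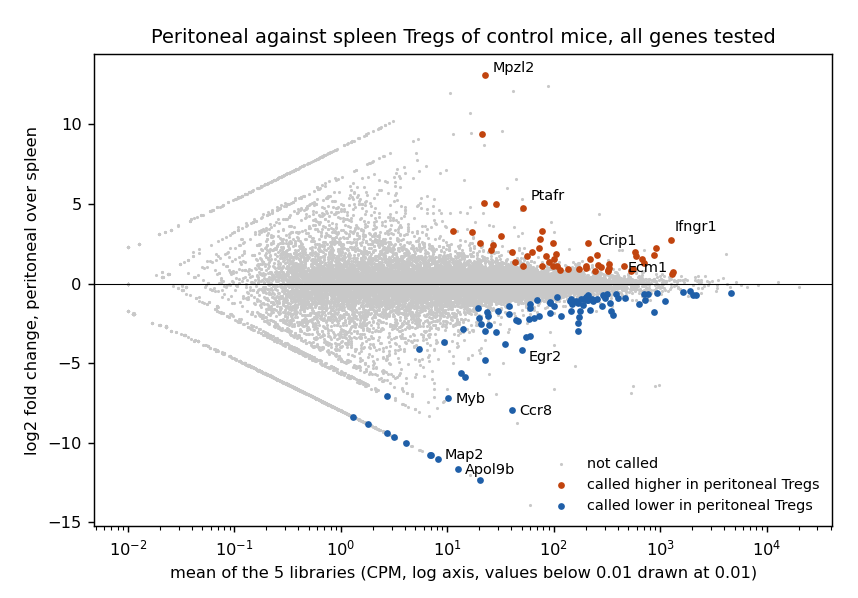
Log2 fold change, peritoneal over spleen, of the 18423 tested genes against their mean CPM over the 5 libraries (log axis), with genes past the threshold in colour. The 54 genes that rose lie above 0 and the 92 that fell below, and many weakly expressed genes with large changes (grey) did not pass.

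Ifngr1, the ligand-binding chain of the interferon gamma receptor (mm10 chromosome 10, 19591949 to 19610229, plus strand), had 3088 and 2053 CPM in the peritoneal libraries and 428, 326 and 414 CPM in the spleen libraries. The lowest peritoneal value was thus several times the highest spleen value. The log2 difference was 2.72 ± 0.22 (SE), a 6.6-fold rise (edgeR adjusted p = 0.000192), and the largest adjusted p with a library left out was 0.00161. The second receptor chain, Ifngr2, did not pass (log2 difference 0.36, adjusted p = 0.634).

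The rise with the smallest p was that of Crip1, a small zinc-binding LIM protein (chromosome 12, 113146316 to 113153879, plus strand). Its level was 1681 and 1796 CPM in peritoneal Tregs and 352, 409.9 and 366 CPM in spleen Tregs. The spread within each tissue was small beside the gap, and the log2 difference was 2.21 ± 0.12 (edgeR adjusted p = 1.32e-05). It was the gene that also passed when only the 5 libraries were fitted, where it was the 1 call.

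Tagln2, an actin-binding protein (chromosome 1, 172500047 to 172507380, plus strand), had 1037 and 1029 CPM against 279.5, 284 and 355 CPM, a log2 difference of 1.75 ± 0.14 (edgeR adjusted p = 0.000158). Ahnak, a very large scaffold protein below the plasma membrane, had 957 and 1216 CPM against 466, 438.5 and 426 CPM (log2 difference 1.29, adjusted p = 0.00174). Ecm1, a secreted matrix protein that is also on the list of Treg identity genes, had 1102 and 969 CPM against 280.1, 279 and 238.5 CPM (log2 difference 1.96, adjusted p = 7.38e-05). In all 3 both peritoneal values lay above every spleen value. Atp2b1, a calcium pump of the plasma membrane, rose by a log2 difference of 0.97.

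Signalling genes among the stable rises were Pim1, Pik3r5, Rnf125 and Ptafr. Pim1, a survival kinase induced by cytokines, had 1471 and 1613 CPM against 393, 489 and 433 CPM (log2 difference 1.81, edgeR adjusted p = 0.00332). Pik3r5, a regulatory subunit of phosphoinositide kinase downstream of G proteins, had 221 and 152.5 CPM against 55.7, 59.7 and 40.9 CPM. Ptafr, the receptor for platelet-activating factor, had 159 and 84.6 CPM against 7.08, 1.92 and 4.38 CPM, a 27.3-fold rise (adjusted p = 0.00936). Myeloid cells also express Ptafr. The macrophage and monocyte sum was 521 CPM in peritoneal control 1 and 3238 CPM in peritoneal control 2, against 944 to 1384 CPM in spleen. The dendritic cell sum was 260.5 and 842 CPM in the same peritoneal libraries, against 159 to 267 CPM in spleen. The part of other cells in the rise of Ptafr was not tested. Adk, adenosine kinase, which removes adenosine from the cell, had 373 and 345 CPM against 131, 131 and 116 CPM (log2 difference 1.51, adjusted p = 0.00378).

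**Figure D3:**
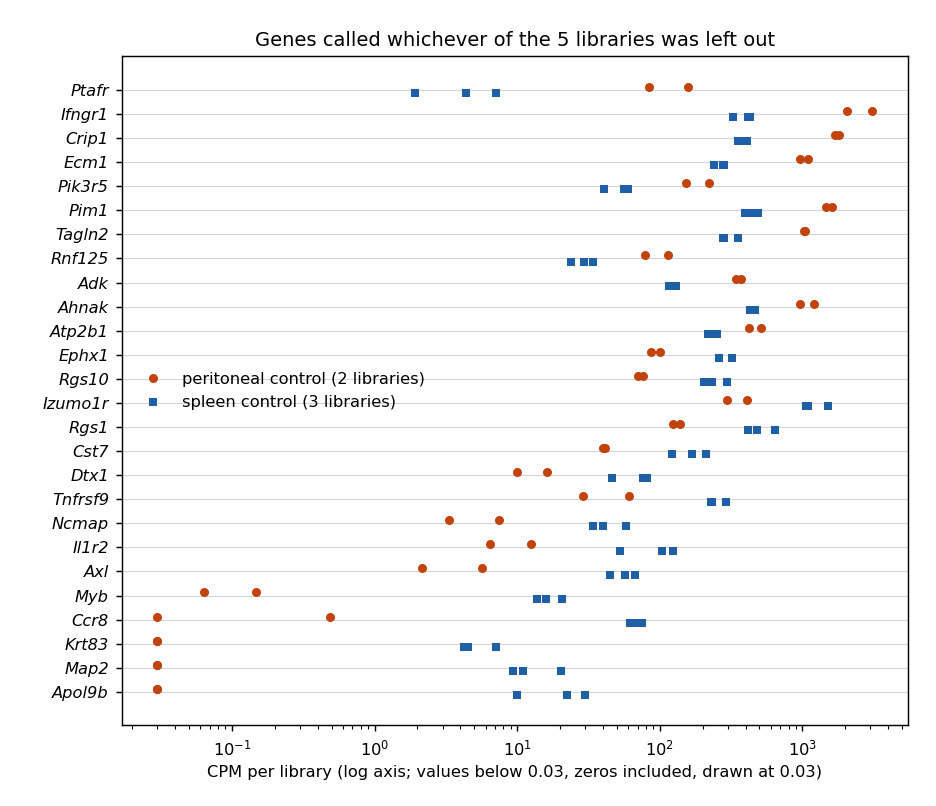
CPM per library (log axis) of 26 stable genes, peritoneal controls as circles and spleen controls as squares. The groups do not overlap for any of the 26, and Apol9b, Map2 and Krt83 have no read in either peritoneal library.

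The largest stable fall with reads in both tissues was that of Ccr8, a chemokine receptor found on activated and tissue Tregs (chromosome 9, 120092133 to 120094906, plus strand). It had 0.489 and 0 CPM in peritoneal Tregs and 74.6, 65.6 and 62.0 CPM in spleen Tregs. The log2 difference was -7.94 ± 0.75 (edgeR adjusted p = 0.000673; 0.00228 at most with a library left out). Thymus control Tregs, whose test against peritoneal Tregs shares the same 2 peritoneal libraries, had 149.8, 150.1 and 115 CPM. Ccr8 was therefore nearly absent from the peritoneal control libraries and present in all 6 control libraries of the other tissues.

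Myb, Tnfrsf9, Il1r2 and Izumo1r were further stable falls. Myb, a transcription factor of progenitor and effector lymphocytes, had 0.147 and 0.0634 CPM against 13.9, 20.8 and 15.9 CPM (log2 difference -7.19, edgeR adjusted p = 0.00049). Its exons overlap the model gene Gm26577, so the split of reads between them is uncertain. Tnfrsf9, the costimulatory receptor 4-1BB, had 28.9 and 60.9 CPM against 231, 229 and 289.5 CPM (log2 difference -2.48, adjusted p = 0.00717). Il1r2, the decoy receptor for interleukin 1, had 6.46 and 12.5 CPM against 53.0, 104 and 123 CPM (log2 difference -3.31, adjusted p = 0.0063). Izumo1r, the folate receptor protein FR4 that marks Tregs, had 411 and 294 CPM against 1090, 1063 and 1512 CPM (log2 difference -1.79, adjusted p = 0.00235). In each of these genes both peritoneal values lay below all 3 spleen values.

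Axl, Cst7, Dtx1, Ephx1, Ncmap and Rnf125 were also stable. Axl, a receptor kinase for growth factor Gas6, had 5.68 and 2.15 CPM against 44.6, 66.6 and 56.6 CPM (log2 difference -3.82, edgeR adjusted p = 0.0042). Cst7, an inhibitor of cathepsins, had 39.9 and 41.2 CPM against 168, 122 and 209.8 CPM, and Dtx1, a target and modifier of Notch signalling, had 9.98 and 16.1 CPM against 46.5, 76.1 and 81.7 CPM. Ephx1, an epoxide hydrolase, had 86.7 and 99.8 CPM against 323, 258 and 321 CPM. In these 4 genes the highest peritoneal value was well below the lowest spleen value. Ncmap, a membrane protein of myelin, fell by 3.04 on the log2 scale, and Rnf125, a ubiquitin ligase, rose by a log2 difference of 1.73. Reads of 39 of the 146 called genes are uncertain because an exon overlaps another gene, among them Ecm1, Pim1, Ephx1, Tnfrsf18, Klf3, Itga4, Crem, Tox, Rgs16 and Lck.

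Regulators of G protein signalling (RGS proteins), which shorten signals from chemokine receptors, had 4 of 11 tested members among the falls and 0 among the rises. Of all tested genes 0.499 percent fell and 0.293 percent rose. The median log2 difference of the RGS genes was -0.07. This family was picked after its values were seen. Rgs10 had 76.8 and 69.9 CPM against 205, 232 and 298 CPM, and Rgs1 had 124 and 138 CPM against 478, 639 and 415 CPM. Both are stable falls, with log2 differences of -1.74 and -1.96 (edgeR adjusted p = 0.000894 and 0.00283). Rgs16 fell by 4.82 on the log2 scale and was lost without peritoneal control 2 (adjusted p = 0.102). Rgs3 fell by 2.25 and was lost without each of the 5 libraries (up to 0.319). Rgs2, Rgs14 and Rgs19 overlapped between the tissues and did not pass.

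Another 3 stable falls had no read in either peritoneal library. Apol9b, an interferon-induced apolipoprotein (chromosome 15, 77729121 to 77736381, plus strand), had 22.5, 9.93 and 30.1 CPM in spleen, which makes it at least 120-fold lower in peritoneal Tregs (edgeR adjusted p = 0.00123; floor of 3 reads per library). It has a near-identical neighbour, Apol9a, so its reads are uncertain between the 2. Map2, a microtubule protein of neurons whose exons overlap the model gene Gm10558, was at least 80-fold lower, and Krt83, a keratin, at least 31-fold lower. Krt83 reached no more than 7.13 CPM in a spleen library.

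Interferon-stimulated genes were a group in which 7 of 36 tested members fell and 0 rose, beside 0.499 and 0.293 percent of all genes. Their median log2 difference was -1.14, beside -0.03 over all genes, and 25 of the 36 (69.4 percent) were separate and lower, beside 13.2 percent over all genes. The summed level of the 36 genes was 3739 and 3248 CPM in peritoneal Tregs and 6717, 5228 and 5330 CPM in spleen Tregs. Of the 7, those described are Ifit3, Isg15, Oas1a, Usp18, Irf7 and Iigp1. The list had 18 calls with DESeq2, 2 with limma and 0 when only the 5 libraries were fitted. Of the genes described, Iigp1 passed with limma and the others did not. With peritoneal control 1 dropped the list had 7 calls, with peritoneal control 2 dropped 1, and with spleen control 1, 2 or 3 dropped 3, 3 and 6.

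Promoters of 3 genes of this list are shown because such genes are known to be switched on through a short repeated GAAA element bound by interferon regulatory factors, and they are the 3 of the 4 called members with a promoter window that hold it. The 4th, Irf7, holds no match. Apol9b is added as the stable fall with the largest bound. The sequences are from RefSeq in build GRCm38.p6, 160 bases each, 5′ to 3′ on the gene's strand and ending at the base before the start. Capitals mark matches to GAAA, any 2 bases and GAAA again, or on the other strand TTTC, any 2 bases and TTTC, with overlapping matches merged.
Isg15, chr4:156200819-156200978, minus strand: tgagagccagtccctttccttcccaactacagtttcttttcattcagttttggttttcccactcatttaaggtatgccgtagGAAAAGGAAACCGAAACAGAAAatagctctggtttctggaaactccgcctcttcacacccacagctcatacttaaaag
Ifit3, chr19:34583369-34583528, plus strand: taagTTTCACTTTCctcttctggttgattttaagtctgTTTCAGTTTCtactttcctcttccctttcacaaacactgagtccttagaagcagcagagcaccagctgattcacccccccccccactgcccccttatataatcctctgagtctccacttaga
Oas1a, chr5:120907526-120907685, minus strand: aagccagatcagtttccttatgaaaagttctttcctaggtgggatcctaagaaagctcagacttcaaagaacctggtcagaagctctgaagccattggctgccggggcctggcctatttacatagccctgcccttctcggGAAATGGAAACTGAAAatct
Apol9b, chr15:77728912-77729071, plus strand: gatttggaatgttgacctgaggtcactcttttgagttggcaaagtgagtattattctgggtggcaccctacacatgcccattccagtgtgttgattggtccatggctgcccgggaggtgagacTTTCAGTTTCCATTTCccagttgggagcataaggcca
Isg15 held 3 matches between 78 and 57 bases before its start, and the other promoters held 2 each. Over windows from 250 bases before to 50 after the start, the motif on either strand occurred in 1131 of 32851 promoters (3.44 percent). Counted by gene, it occurred in 438 of 10929 tested genes with a window (4.01 percent), in 15 of the 25 tested interferon-stimulated genes that have a window (60 percent), in 9 of 68 genes that fell (13.2 percent) and in 2 of 44 genes that rose (4.55 percent). A match describes the letters and is not a shown binding site.

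Ifit3, an antiviral RNA-binding protein, had 4.11 and 4.82 CPM against 35.9, 45.2 and 23.02 CPM, and Isg15, a ubiquitin-like modifier, had 7.09 and 4.88 CPM against 54.9, 23.6 and 31.8 CPM. Both passed (log2 difference -2.96 and -2.62) and both were lost without peritoneal control 2 (adjusted p = 0.0654 and 0.157). Usp18, which removes Isg15 from proteins, fell by 1.73, Oas1a, an RNA sensor, by 1.74, Iigp1, an immunity-related GTPase, by 2.10 and Irf7, a transcription factor of the same response, by 0.96. Oas1a and Iigp1 were lost without each of the 5 libraries (adjusted p up to 0.319 and 0.2), Usp18 without all but spleen control 3 (up to 0.308) and Irf7 without all but peritoneal control 1 (up to 0.367). Rsad2, an antiviral enzyme with 0 and 0.824 CPM against 62.6, 53.0 and 28.4 CPM, narrowly missed the threshold (adjusted p = 0.0507). Not all members were low in peritoneal Tregs, since Ifit2, Gbp2, Gbp7, Trim30a and Ddx58 overlapped between the tissues, and Gbp3 was separate and higher (log2 difference 0.35, adjusted p not past the threshold).

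**Figure D4:**
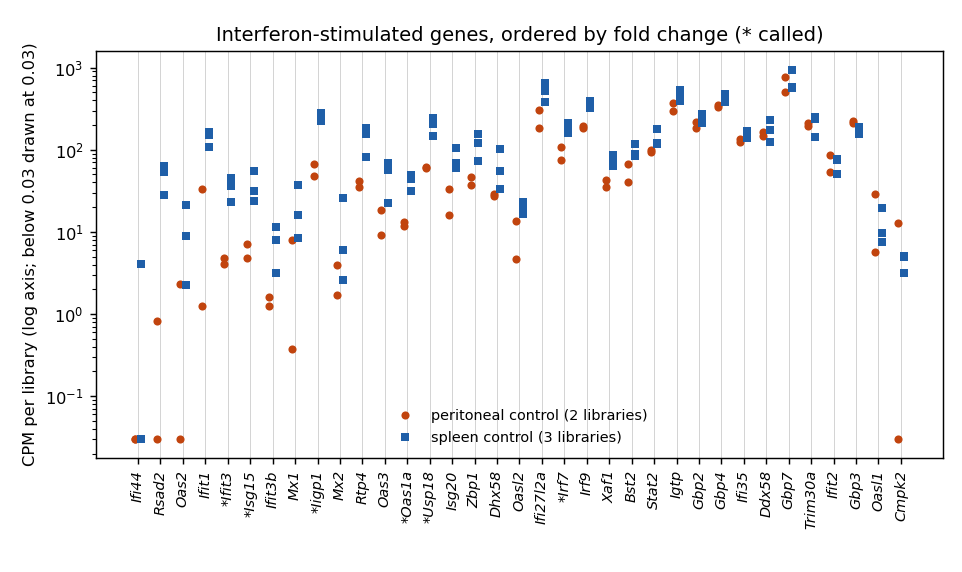
CPM per library (log axis, values below 0.03 drawn at 0.03) of 35 of the 36 tested interferon-stimulated genes, ordered by fold change, with an asterisk for the 6 drawn that fell. For 24 of the 35 both peritoneal controls (circles) lie below all 3 spleen controls (squares).

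Genes of antigen processing for class I molecules formed a group of 16, chosen after values were seen. Of these 7 fell and 0 rose, beside 0.499 and 0.293 percent of all genes, with a median log2 difference of -0.68. Tap1, Tap2 and Tapbp, which load peptides, fell by 0.65, 1.10 and 0.90 on the log2 scale, and Psme2, an activator of the proteasome, fell by 0.82. Tap1 exons overlap Psmb9, and Tap2 and Tapbp overlap other models, so their reads are uncertain. H2-T23, a non-classical class I gene, had 582 and 581 CPM against 867, 857.5 and 979.5 CPM (log2 difference -0.63, edgeR adjusted p = 0.011). It was lost without peritoneal control 2 (0.117), and each of the other 6 was lost without at least 4 of the 5 libraries (up to 0.381 for Tap2). The classical genes H2-K1 and B2m did not pass (log2 difference -0.23 for both).

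The Treg identity list, 26 genes, had 3 members that rose and 5 that fell, beside 0.293 and 0.499 percent of all genes. Its median log2 difference was -0.40. Ecm1, Socs2 and Tnfrsf18 rose, and Izumo1r, Entpd1, Itgae, Il2rb and Cd3e fell. Tnfrsf18, the costimulatory receptor GITR, had 789.7 and 623 CPM against 415, 354 and 484 CPM (log2 difference 0.76, edgeR adjusted p = 0.0251). Socs2, a feedback inhibitor of cytokine signals, rose by a log2 difference of 2.24. Itgae, the integrin chain CD103 that binds epithelial cadherin, had 14.5 and 2.03 CPM against 79.3, 83.0 and 92.8 CPM (log2 difference -3.35, adjusted p = 0.0258). Il2rb, the beta chain of the interleukin 2 receptor, had 492 and 390.2 CPM against 933, 824 and 975 CPM (log2 difference -1.05, adjusted p = 0.0131). Entpd1, the ectonucleotidase CD39, fell by 1.91. Against 8 calls with all libraries, this list had 7 when peritoneal control 1 was dropped, 4 for peritoneal control 2, and 3, 4 and 5 for spleen controls 1, 2 and 3. Tnfrsf18 was lost without peritoneal control 1 (0.0879) and without spleen controls 1 and 2, Itgae without each spleen control (up to 0.0616), Il2rb without peritoneal control 2 (0.165), Socs2 without peritoneal control 2 (0.228) and spleen controls 1 and 2, and Entpd1 without each of the 5 (up to 0.172).

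Core Treg regulators did not pass. Il2ra, the alpha chain of the interleukin 2 receptor, had 392 and 550.4 CPM against 667, 712 and 578 CPM (log2 difference -0.47, edgeR adjusted p = 0.393). Ikzf2, the transcription factor Helios, had 677 and 576 CPM against 1005, 997 and 855 CPM (log2 difference -0.60, adjusted p = 0.0713), and Ctla4, the inhibitory receptor, had a log2 difference of -0.41. Penk, the enkephalin precursor, had 14.1 and 0.317 CPM against 238, 261 and 286 CPM, with separate groups but an adjusted p of 0.0615. Both peritoneal values of Ikzf2 and Il2ra lay below all spleen values. Such separation was seen in 25 percent of all genes.

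The tissue Treg list, 31 genes known from Tregs of fat, skin and gut, moved both ways. It had 4 members that rose and 3 that fell, beside 0.293 and 0.499 percent of all genes, and a median of 0.19. Il1rl1, the interleukin 33 receptor, had 193 and 115 CPM against 42.7, 12.97 and 9.72 CPM, a 7.09-fold rise (edgeR adjusted p = 0.0351). Fosl2, an AP-1 factor, rose by a log2 difference of 2.99, Il18r1, a receptor chain for interleukin 18, by 1.37 and Pim1 by 1.81. Ccr8, Tnfrsf9 and the AP-1 factor Batf fell, Batf by 1.44. Klrg1 (log2 difference 0.18), Gata3 (-0.02) and Rora (0.76), other genes of tissue Tregs, did not pass. Pparg, the regulator of fat Tregs, had 0.0489 and 0.0634 CPM in the peritoneal libraries. Both values are below the floor of 3 reads there (0.147 and 0.19 CPM), so no tissue difference of Pparg is read from them. Il1rl1 was lost without peritoneal control 1, peritoneal control 2, spleen control 2 or spleen control 3 (adjusted p up to 0.102), Fosl2 and Il18r1 without each of the 5 (up to 0.132 and 0.121), and Batf without peritoneal control 2 (0.159) and spleen control 1. The list had 4 calls whichever of the 5 libraries was dropped, against 7 with all.

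The largest rise by fold was that of Mpzl2, an adhesion protein of the immunoglobulin superfamily, with 70.3 and 43.8 CPM in peritoneal Tregs and no read in any spleen library. This makes it at least 370-fold higher (edgeR adjusted p = 0.0241; floor of 3 reads per library). It was lost without peritoneal control 2 (0.0852) and without each spleen control (0.0551 to 0.0619). In dDC mice it had 35.7 and 7.11 CPM against at most 0.0534 CPM. Thymus controls had no read of it, so among control mice its reads came from the peritoneal libraries.

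Trafficking receptors also moved in both directions. Ccr2, a receptor for monocyte-attracting chemokines, had 263 and 573 CPM against 74.9, 55.3 and 85.2 CPM, a 5.82-fold rise (edgeR adjusted p = 0.0269). It is also a monocyte gene, and it was highest in peritoneal control 2, which has the highest macrophage and monocyte sum. The part of other cells in the rise of Ccr2 was not tested. Its call was lost without peritoneal control 2, as were most calls, and without each spleen control too (edgeR adjusted p = 0.0739 to 0.0957). Ccr6, a receptor for the mucosal chemokine Ccl20, had 22.2 and 20.3 CPM against 122, 107 and 56.4 CPM (log2 difference -2.16, adjusted p = 0.011), and was lost without peritoneal control 2 (0.13). The integrin chains Itga4 and Itgb1, which pair to bind fibronectin and vascular adhesion molecules, rose by log2 differences of 0.93 and 0.80, whereas Itgal, the alpha chain of LFA-1, fell by 1.29. Itga4 was lost without each of the 5 libraries, Itgb1 without all but spleen control 3, and Itgal without peritoneal control 2 and spleen controls 1 and 3 (adjusted p up to 0.151, 0.138 and 0.171). The homing receptors Ccr7 and Cxcr3 overlapped between the tissues, and S1pr1, the egress receptor, was separate and higher without passing (log2 difference 0.69, adjusted p = 0.256).

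Klf3 and Klf2, Krüppel-like factors of which Klf2 is known to keep T cells quiescent, rose. Klf3 had 491 and 520.0 CPM against 265, 199 and 172 CPM (log2 difference 1.25, edgeR adjusted p = 0.00983), and Klf2, which drives expression of egress receptors, had 127 and 204 CPM against 46.7, 67.2 and 57.4 CPM (log2 difference 1.54, adjusted p = 0.0281). They were the 2 members of the naive or resting list, 28 genes, that passed, beside 0.293 percent of all genes that rose. Klf2 was lost without each spleen control, and both were lost without peritoneal control 2. The list then had 0 calls. Cdkn1b, an inhibitor of cell division, rose by 0.83 and was the 1 call among 38 cell cycle genes, whose median log2 difference was -0.89 with 15 separate and lower (39.5 percent, beside 13.2 percent of all genes). It was lost without each of the 5 libraries (up to 0.115). Lmna, the nuclear lamina protein, had 27.8 and 45.6 CPM against 3.65, 4.46 and 3.66 CPM, a 9.34-fold rise (adjusted p = 0.0066) lost without peritoneal control 2 (0.0654). Crem, a cyclic AMP-responsive repressor, rose by 2.53 and Myadm, a membrane protein, by 3.30, and Crem was lost without peritoneal control 1 and spleen controls 2 and 3 (up to 0.094), Myadm without peritoneal control 2 and spleen controls 1 and 2 (up to 0.171).

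The list of immediate early and AP-1 genes, which are induced within minutes of stimulation, had a median log2 difference of 0.50 over 33 genes. Of these 7 (21.2 percent) were separate and higher and 8 (24.2 percent) separate and lower, beside 11.8 and 13.2 percent of all genes. In the same list 1 rose (Fosl2) and 2 fell (Egr2 and Rgs1). Egr2, a transcription factor induced by the T cell receptor, had 2.64 and 6.08 CPM against 94.4, 67.4 and 78.8 CPM (log2 difference -4.21, edgeR adjusted p = 0.0194). Cd83, a surface protein of activated lymphocytes, had 49.6 and 17.04 CPM against 242, 220.1 and 315 CPM (log2 difference -2.96). Among 33 costimulatory and checkpoint receptors 4 fell (Lag3, Cd96, Cd200 and Tnfrsf9) and 1 rose, with 17 separate and lower (51.5 percent, beside 13.2 percent of all genes) and a median of -0.56. Over all genes 0.499 percent fell and 0.293 percent rose. The follicular regulatory list, genes of Tregs that enter B cell follicles, had 2 of 14 members that fell, Tox and Sh2d1a, none that rose, and 10 separate and lower (71.4 percent, beside the same 13.2 percent), with a median of -1.43. Tox, a transcription factor, had 139 and 142 CPM against 396.5, 371 and 364.5 CPM (log2 difference -1.43, adjusted p = 0.00454). Egr2 was lost without peritoneal control 1 (0.0598), peritoneal control 2 (0.0898) and spleen control 1 (0.0522), Cd83 without peritoneal control 2 (0.13) and spleen control 3, Tox and Sh2d1a without peritoneal control 2 (0.0654 and 0.102), and Lag3 without each of the 5 (up to 0.365). Cd200 was lost without all but spleen control 3 (up to 0.102) and Cd96 without both peritoneal controls and spleen control 2 (up to 0.13). With 1 library dropped the receptor list had 2 to 4 calls and the follicular list 0 to 3, with 0 when that library was peritoneal control 2.

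Trac, Cd3e, Lck and Cd6, genes of the T cell receptor and its signalling, fell by small amounts. Trac, the constant region of the receptor's alpha chain, had 1612 and 1508 CPM against 2670.0, 2308 and 2750.0 CPM (log2 difference -0.72, edgeR adjusted p = 0.0042). Cd3e, Lck and Cd6 fell by 0.51, 0.73 and 0.59 and were the 3 calls among 25 receptor signalling genes, beside 0.499 percent of all genes that fell. Of the 25, 14 (56 percent) were separate and lower and 0 separate and higher, beside 13.2 and 11.8 percent of all genes. Of 199 tested T cell receptor segments 79 (39.7 percent) were separate and lower, beside 13.2 percent of all genes. The B cell sum was 24300 CPM in peritoneal control 2, above all spleen libraries, and 8458 CPM in peritoneal control 1, within the spleen range of 4645 to 9011 CPM. Trac, Cd3e, Lck and Cd6 were lower in both peritoneal libraries, and the part of other cells in these falls was not tested. Trac was lost without peritoneal control 2 (0.0769), Cd3e without all but spleen control 2 (up to 0.246), and Lck and Cd6 without all but peritoneal control 1 (up to 0.432 and 0.367).

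Genes of other cells were also measured, some of them among the calls. The erythroid haemoglobin gene Hba-a1 had 33.7 and 4.43 CPM in peritoneal and 2454, 975 and 1371 CPM in spleen libraries. Bhlhe41 and Zbtb32, markers of innate-like B cells, had 29.5 and 106 CPM and 37.7 and 68.9 CPM in the peritoneal libraries, against at most 3.82 and 2.45 CPM in spleen. The immunoglobulin segment Igkv4-91 had 18.4 and 86.3 CPM against at most 0.171 CPM. In Bhlhe41, Zbtb32 and Igkv4-91 the higher value was in peritoneal control 2, as for the B cell sum. All 3 were lost without it, as were most of the 146 calls, and Zbtb32 also without spleen controls 1 and 2. The part of other cells in these rises was not tested. Of the 54 genes that rose, 6 had at least 2 times as much in peritoneal control 2 as in control 1, and 2 had the reverse. With the other-cell, immunoglobulin and mitochondrial genes left out before scaling, 140 genes passed, 139 of them among the 146.

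Libraries of dDC mice gave the same comparison in separate samples, 2 peritoneal against 3 spleen. There 167 genes passed (0.906 percent), 89 higher (0.483 percent) and 78 lower (0.423 percent). All 54 genes that rose in controls had a positive difference in dDC mice and 37 of them rose there too, and 90 of the 92 that fell had a negative difference and 40 fell there too. Over all genes, 59.8 percent had the same sign in both genotypes. The 77 shared calls were 52.7 percent of the control calls and 46.1 percent of the dDC calls. Median log2 differences were 1.64 and 1.42 (controls and dDC) for the genes that rose, and -1.73 and -0.98 for those that fell. These genes were chosen by their control values, a selection that by itself makes the control medians larger in size. The medians therefore do not compare the genotypes.

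Ifngr1 had 4069 and 3405 CPM in peritoneal and 569, 484 and 485 CPM in spleen dDC libraries (log2 difference 2.87, edgeR adjusted p = 0.000152). Crip1 had 2138 and 2808 CPM against 478, 452 and 420.4 CPM (log2 difference 2.46, adjusted p = 4.15e-06). Ccr2 had 685 and 531 CPM against 134, 66.1 and 54.9 CPM, in libraries whose macrophage and monocyte sums were 761 and 984 CPM in peritoneal and 1005 to 1516 CPM in spleen. Its log2 difference in dDC mice was 2.84 (adjusted p = 0.0144), and the part of other cells in it was not tested.

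Ccr8 had 3.09 and 9.56 CPM in peritoneal and 55.5, 67.9 and 67.5 CPM in spleen dDC libraries, a log2 difference of -3.33 beside -7.94 in controls. Krt83 had 2.99 and 7.39 CPM against 10.4, 8.98 and 10.5 CPM, a log2 difference of -0.94 that did not pass, and Map2 had a log2 difference of -2.70 that did not pass. In controls, where neither gene had a peritoneal read, the falls are known as bounds alone, at least 31-fold and 80-fold. Peritoneal dDC values of these genes lay above both peritoneal control values. The test of the difference between genotypes called 0 genes (0 percent) with edgeR, with a smallest adjusted p of 0.148 for Krt83 (0.622 for Ccr8 and Map2), and 900 genes (4.89 percent) had an unadjusted p under 0.05. DESeq2 called 55. Without peritoneal control 1 edgeR called 71, 1 higher and 70 lower, and with each of the other 9 libraries of the 4 groups left out it called 0. A difference between genotypes in the size of these falls was thus not established by edgeR with all libraries.

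**Figure D5:**
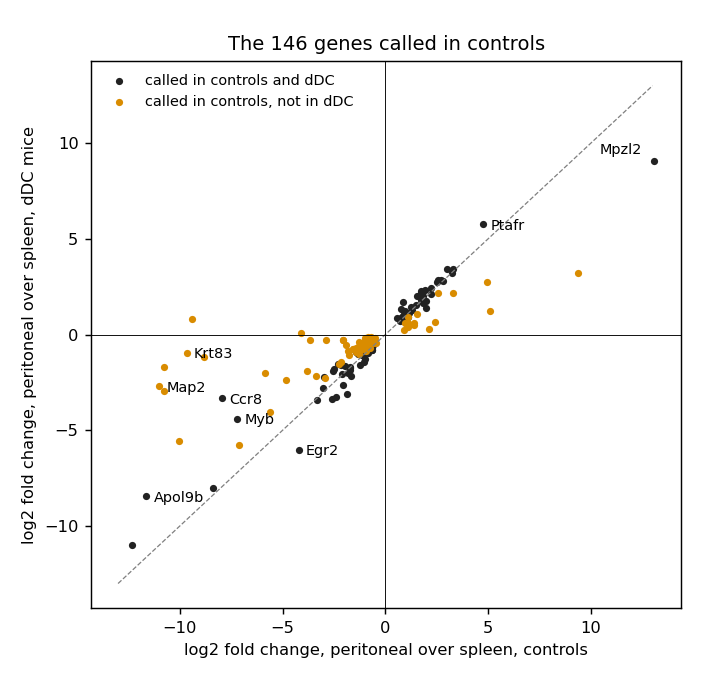
Log2 fold change, peritoneal over spleen, in dDC mice against that in controls for the 146 genes called in controls, with the diagonal as a dashed line. The 77 genes that passed in both genotypes (black) lie mostly near the diagonal, and Ccr8 lies closer to 0 in dDC mice than in controls; for Krt83, Map2, Apol9b and Mpzl2, which have no read in 1 control group, the position is a fitted value and no bound.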

How the data were processed

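RNA of sorted Foxp3-positive cells was turned into cDNA from a poly-dT primer with template switching, amplified, sheared and sequenced, per the labels' protocols. This chemistry does not mark the strand, and no molecular identifiers are named. The authors deposited raw read counts of each gene in each library, made with GSNAP 2018-03-11 and featureCounts 1.6.0 on mm10, per the submitters' processing notes. The sources used here do not give strand or multiple-match settings. The 92 spike-in rows were left out. Symbols were found for 98.8 percent of gene identifiers.

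Genes were filtered with filterByExpr and fitted with edgeR 4.0.16 (R 4.3.3) in 1 robust quasi-likelihood model of all 15 libraries with 6 group means, TMM factors and 9 residual degrees of freedom. The 18423 genes tested held 99.93 percent of counts. Tests were two-sided with Benjamini-Hochberg adjustment over all tested genes and a threshold of 0.05. Alternatives were DESeq2 1.42.0, limma 3.58.1, other scaling, filters and thresholds, and leaving out each library. On simulated counts the test was checked; 13 percent of 2-fold and 61 percent of 4-fold changes were recovered. The median biological coefficient of variation was 0.55 (0.18 above 100 CPM, 1.29 below 5 CPM), and floors of 3 reads cover counting error only.

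Genes named are, for each direction, the 14 largest called changes that had separate values and a higher group averaging 10 CPM or more, up to 6 called and 2 other members of each of 39 lists, and fixed Treg genes; genes kept with every library left out, Ifngr2, Gbp, RGS and class I genes, among others, were added after values were seen. Members and lists were chosen with earlier results of these data known, and no set test was made. Promoter sequences came from RefSeq tables. Some items are not reported here.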

Additional observations from a re-analysis of the deposited data

How the results depend on the processing

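The count of 146 genes in the control comparison (54 higher, 92 lower) became 775 with DESeq2 (248 and 527), 1 when only the 5 libraries were fitted (Crip1), 39 at an adjusted p under 0.01 and 42 when tested against a fold change of 1.5, and lay between 38 and 326 with 1 library left out. Of the 146 genes, 146 also passed with DESeq2 and 94 with limma, which called 127 and put 44.1 percent of them lower, against 63 percent with edgeR; without peritoneal control 1 it was 81.3 percent. Size factors (145), no filter (152), a stricter filter (219) and leaving out genes of other cells (140) kept the count within 1.5 times. The test between genotypes, 0 with edgeR, became 55 with DESeq2 and lay between 0 and 71 with 1 library left out. The cause was not tested. No named or listed gene past the threshold changed direction. The median biological coefficient of variation was 1.29 below 5 CPM and 0.18 above 100 CPM. No paired analysis was possible because the labels give no replicate numbers that the tissues share.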

Other observations

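Ribosomal protein genes, outside the lists above, had 36 of 85 members separate and higher in peritoneal control Tregs (42.4 percent, beside 11.8 percent of all genes) and 0 past the threshold with edgeR, with a median log2 difference of 0.18. Of 42 proteasome subunit genes 3 fell, beside 0.499 percent of all genes, and 14 (33.3 percent) were separate and lower, beside 13.2 percent. Glycolysis, cholesterol synthesis, fatty acid, heat shock, NF-kappaB and S100 lists had 0 members past the threshold, beside 0.792 percent of all genes. At that share, lists of 19 to 33 tested genes can easily hold none. In the glycolysis and S100 lists 29.6 and 25 percent of genes were separate and higher, beside 11.8 percent of all genes, and 11.1 and 5 percent separate and lower, beside 13.2 percent. In the cholesterol, fatty acid, heat shock and NF-kappaB lists 5.26 to 8.7 percent were separate and higher and 10.5 to 20.8 percent separate and lower. Tnfsf11, the cytokine RANKL, had 1.91 and 0.38 CPM in peritoneal and 9.47, 14.6 and 20.1 CPM in spleen controls, but 13.9 and 9.94 CPM against 18.3, 13.2 and 12.8 CPM in dDC mice, with an edgeR adjusted p of 0.92 for the difference between genotypes. Its control fall was lost without peritoneal control 2 (0.11) and without spleen controls 2 and 3.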
